A study of Gallus gallus with 12 samples.

Results

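The joint effect of early heat and a later bacterial challenge was measured by comparing microglia of chicks (Gallus gallus) that had received both treatments with microglia of chicks that had received neither. The 6 libraries compared, of 12 in the series, were chosen by their labels alone: the 3 LPS-injected conditioned libraries and the 3 saline-injected non-conditioned libraries. Conditioned chicks had spent 24 h at 39°C on day 3 after hatching. The injection, of LPS or of saline, was made in the third ventricle on day 10. On day 11 microglia were sorted by FACS from the anterior hypothalamus, and each library held the cells of 10 to 12 pooled birds. The joint group thus carried heat and LPS, and the reference group ("neither") carried no heat and a saline injection, so that injection into the brain was common to all groups. The other 6 libraries carried a single treatment: heat conditioning with saline ("heat alone", n = 3) or LPS without conditioning ("LPS alone", n = 3). The question was how the joint effect stood beside the sum of the 2 single effects.

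Microglia are the resident macrophages of the brain. LPS, a component of the outer membrane of Gram-negative bacteria, is recognised by Toll-like receptor 4 and its co-receptors and drives NF-kB and interferon programmes in such cells. The anterior hypothalamus holds temperature-sensitive neurons that take part in the control of body temperature, and heat exposure soon after hatching is known as a way to shift later thermal tolerance of chickens. If each of 2 treatments scales a transcript by a factor that the other does not alter, their effects multiply, and their log2 fold changes add. A joint log2 fold change was therefore set against the sum of both single log2 fold changes, and the difference between them is the interaction of a 2-factor design.

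The genes carry Ensembl identifiers with no symbol (0 of 11207 in the deposited table), and the reference list holds an Ensembl identifier for 0 of its 25635 genes. No gene could therefore be assigned a function, and the labelled cell type could not be checked against markers of microglia or of other brain cells. In these bulk libraries a lower level through fewer cells of a type and through less RNA per cell cannot be told apart. Total counts per library ran from 189180 to 510210 in the neither group and from 451683 to 504861 in the joint group. Replicates correlated at 0.884 to 0.895 in log2 CPM (CPM are counts relative to the library total, scaled by TMM) in the neither group and at 0.948 to 0.956 in the joint group. The median over genes of the SD among replicates was 0.371 and 0.241 on the log2 CPM scale in these groups. Saline non-conditioned replicates 2 and 3 stood apart on the first and second principal components and LPS non-conditioned replicate 1 on the third. The joint calls without them are given with the other left-out libraries at the end.

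Heat plus LPS changed 21 genes of the 5170 tested, 0.406% of them (quasi-likelihood test in edgeR at an adjusted p under 0.05). Of these, 7 rose (0.135% of genes tested), by 2.09-fold to 6.36-fold, and 14 fell (0.271%), by 1.83-fold to 3.50-fold. The median log2 fold change was 1.60 over the rises, -1.18 over the falls and -0.01 over all genes tested. The single treatments were each set against the same neither libraries. LPS alone gave 23 rises (0.445%) and 5 falls (0.0967%), 0.542% of genes in all. Heat alone gave 0 calls (0%), and DESeq2 also called 0. With heat alone 256 genes had an unadjusted p under 0.05 in edgeR, where 258.5 are expected by chance. Of the genes called jointly, all 7 rises and 1 of the 14 falls were also called for LPS alone. These comparisons share the neither libraries, so their values are set side by side and not counted as independent. Below, genes are called rise 1 to rise 7 and fall 1 to fall 14 in the order of the size of their joint change, and 4 are given by identifier.

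**Figure D1:**
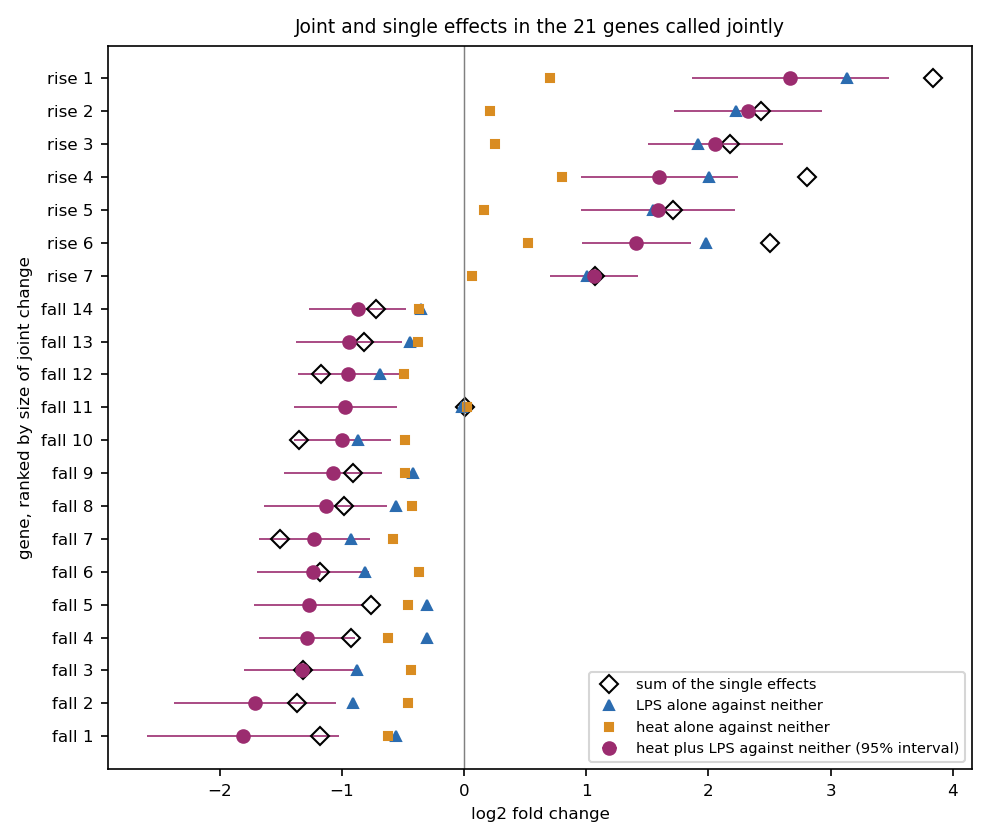
Log2 fold change against the neither group for the 21 genes called jointly, 1 gene per line: the joint effect with its 95% interval, LPS alone, heat alone and the sum of both single effects. In the 7 rises LPS alone lies between 1.005 and 3.13 and heat alone between 0.07 and 0.80, so both are positive in each. In 13 of the 14 falls both single effects are negative. All effects share the neither libraries on which the genes were called, which favours these signs.

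The largest rise was in ENSGALG00000020316.5 (rise 1). It stood at 6.10, 21.9 and 11.2 CPM in the neither libraries, replicates 1 to 3, which held 2, 4 and 5 counts. In the joint libraries it stood at 70.2, 83.0 and 72.5 CPM, from 32, 40 and 32 counts. The lowest joint library lay above the highest neither library. The log2 fold change was 2.67 (SE 0.39, adjusted p = 0.00103 by edgeR). Summed over the group and divided by the totals over all genes, without TMM, its counts were 6.73 times higher (exact 95% interval 3.61 to 13.9, for counting error only). With LPS alone its level was 103 ± 8.66 CPM and with heat alone 17.3 ± 7.94 CPM (SD, n = 3). Each of the 3 LPS-alone libraries, at 93.6 to 111 CPM, lay above each joint library. The share of all genes with that separation was not computed. Heat plus LPS against LPS alone was not called in this gene (log2 fold change -0.46, SE 0.26, edgeR adjusted p = 0.818).

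ENSGALG00000027716.2 (rise 2) had the highest mean of the rises over the 6 compared libraries, at 1559 CPM, though rise 7 was higher in the neither group. Its neither libraries stood at 293, 515 and 743 CPM and its joint libraries at 4046, 1672 and 2084 CPM. The groups did not overlap, and joint replicate 1 was far above the other two joint libraries. The log2 fold change was 2.32 (SE 0.29, adjusted p = 0.000279 by edgeR). LPS alone brought it to 2432 ± 412 CPM and heat alone to 599.8 ± 68.0 CPM (SD, n = 3).

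**Figure D2:**
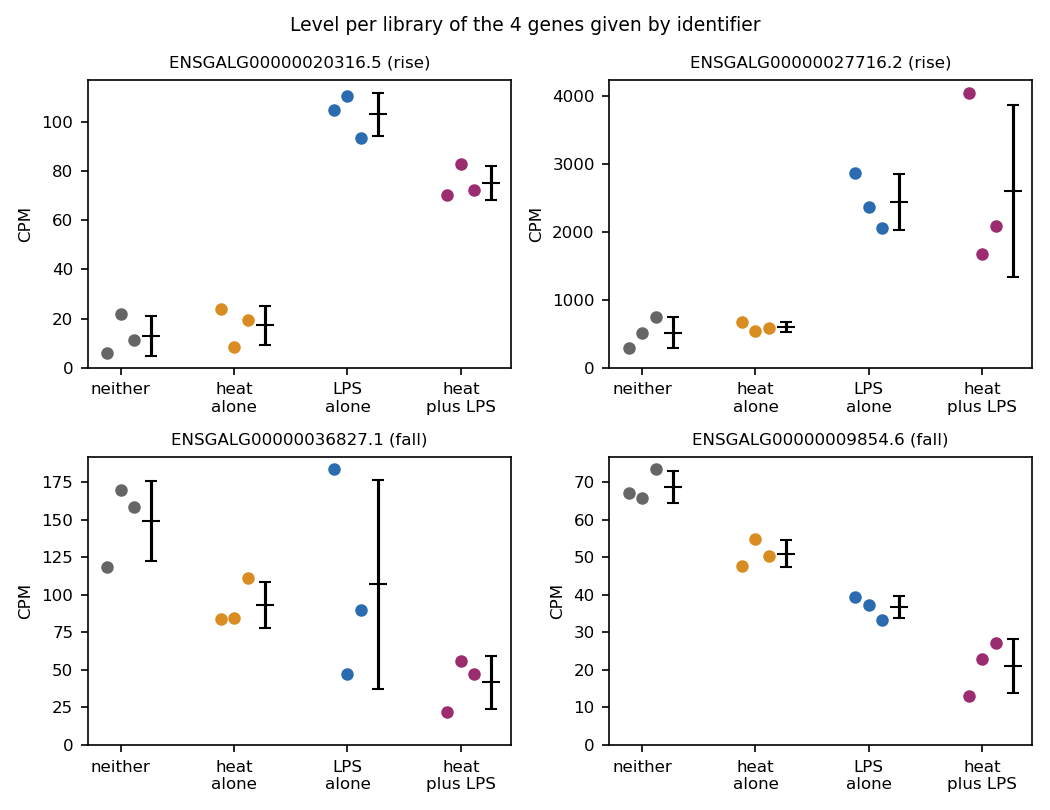
Level in CPM of the 4 genes given by identifier in each of the 12 libraries, by group, with the mean and SD of each group (n = 3) in black. In ENSGALG00000009854.6 the 4 groups form separate steps from 68.8 CPM (neither) through 51.0 (heat alone) and 36.7 (LPS alone) to 21.1 CPM (heat plus LPS).

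The remaining 5 rises spanned levels from 31.9 CPM (rise 5) to 834 CPM (rise 7) in the neither group. Rise 3 went from 48.6 ± 9.15 to 212 ± 56.2 CPM (SD, n = 3). Rise 6 went from 161 ± 36.6 to 437 ± 26.03 CPM. Rise 7 went from 834 ± 96.7 to 1748 ± 85.3 CPM, with neither libraries at 890, 723 and 890 CPM and joint libraries at 1698, 1846 and 1699 CPM. In all 7 the joint libraries lay wholly above the neither libraries, as they did in 6.91% of all genes tested. The rises were called on these same libraries, so the separation follows largely from the selection and carries no test. Heat alone had log2 fold changes of 0.07 to 0.80 in these genes, 0 of them called, and LPS alone of 1.005 to 3.13, all 7 called.

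The 6 single-treatment libraries do not enter the joint difference itself, although all 12 libraries share the estimate of the spread and the scaling. LPS alone against heat alone called 11 of the 5170 genes (0.213%), 9 of them higher (0.174%) and 2 lower (0.0387%) with LPS alone. All 7 joint rises were among those 9. When each comparison was fitted on its own 6 libraries, all 7 rises and all 14 falls were still called jointly, among 30 genes, and 4 of the 7 rises were called for LPS alone against heat alone. Their log2 difference between LPS alone and heat alone ran from 0.94 to 2.43, with a median of 1.46, against a median of 0.01 over all genes. In rise 1 the difference was 2.43 (edgeR adjusted p = 0.000386) and in rise 7, the smallest, 0.94 (edgeR adjusted p = 0.0128). None of the 14 joint falls was called there. Their differences ran from -0.45 to 0.32 with a median of -0.10, 9 of them negative, as were 48.9% of all genes tested. Without LPS non-conditioned replicate 1 that median was -0.44. When single libraries were left out, 4 to 7 of the 7 rises stayed called, and the lowest number, 4, came in 2 fits, which lacked saline conditioned replicate 1 or LPS non-conditioned replicate 2.

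**Figure D3:**
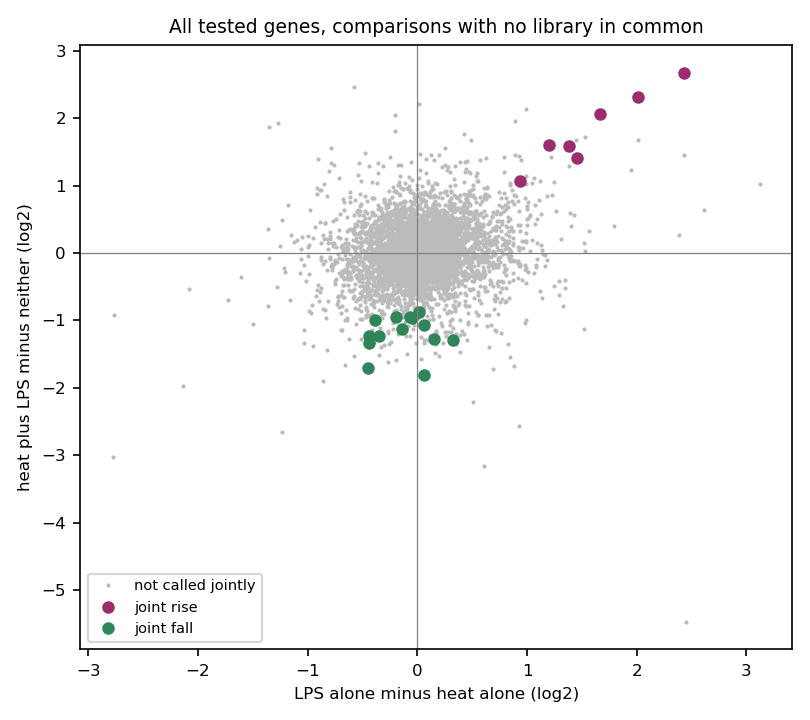
Each point is 1 of 5170 tested genes, with the log2 difference between LPS alone and heat alone on the horizontal axis and between heat plus LPS and neither on the vertical axis; the differences are between groups with no library in common. The 7 joint rises lie at 0.94 to 2.43 on the horizontal axis and the 14 joint falls at -0.45 to 0.32.

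Across all 5170 genes the 2 comparisons with no library in common correlated at a Pearson r of 0.17 (Spearman 0.15), a description across genes, which are not independent replicates and share library depth.

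The falls had another arrangement of the 4 groups. The largest was in ENSGALG00000036827.1 (fall 1), at 119, 170 and 158 CPM in the neither libraries and 21.9, 56.0 and 47.6 CPM in the joint libraries. Its highest joint library was below its lowest neither library. The log2 fold change was -1.81 (SE 0.38, adjusted p = 0.0275 by edgeR). Heat alone stood at 84.2, 84.5 and 111 CPM, between those groups. LPS alone was spread over 184, 47.2 and 90.2 CPM, so that replicate 1 lay above every neither library.

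ENSGALG00000009854.6 (fall 2) stood at 67.1, 65.7 and 73.6 CPM with neither treatment and at 47.6, 54.9 and 50.5 CPM with heat alone. LPS alone gave 39.3, 37.4 and 33.4 CPM, and heat plus LPS gave 13.2, 22.8 and 27.2 CPM. No library of any of the 4 groups overlapped the next group. The joint log2 fold change was -1.71 (SE 0.32, adjusted p = 0.00997 by edgeR), beside -0.91 ± 0.30 for LPS alone and -0.46 ± 0.28 for heat alone (edgeR adjusted p = 0.302 and 0.92, neither called). The joint libraries held only 6, 11 and 12 counts of this gene and the neither libraries 22, 12 and 33. The LPS-alone libraries held 12, 23 and 10 counts and the heat-alone libraries 26, 13 and 49. The share of all genes with 4 such separate groups was not computed.

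The other 12 falls included more abundant genes. Fall 13, the most abundant of the 21, stood at 4039, 5371 and 4255 CPM with neither and at 2517, 2037 and 2539 CPM with both treatments. Fall 4 stood at 680, 986 and 888 CPM with neither and 386, 315 and 340 CPM with both, a log2 fold change of -1.29 (SE 0.19, adjusted p = 0.00103 by edgeR). Fall 5 was nearly constant in the joint group, at 219, 220 and 222 CPM, after 369, 761 and 498 CPM with neither. In all 14 falls the joint libraries lay wholly below the neither libraries, as they did in 7.31% of all genes tested. The falls were called on these same libraries, so the separation follows largely from the selection and carries no test.

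Of the 14 falls, 13 were called for neither treatment alone. LPS alone had log2 fold changes between -0.93 and -0.02 in them (median -0.56, 14 of 14 negative, 1 called), and heat alone between -0.62 and 0.03 (median -0.46, 13 of 14 negative, 0 called). The medians over all genes tested were -0.01 and -0.02. In 13 of the 14 falls (92.9%) both single-treatment means lay between the neither and the joint mean, as in 20.3% of all genes tested. Because the genes were called for a high neither group and a low joint group, and both single effects are taken from the same neither libraries, this arrangement is a description and carries no test. It held in 4 of the 7 rises (57.1%).

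**Figure D4:**
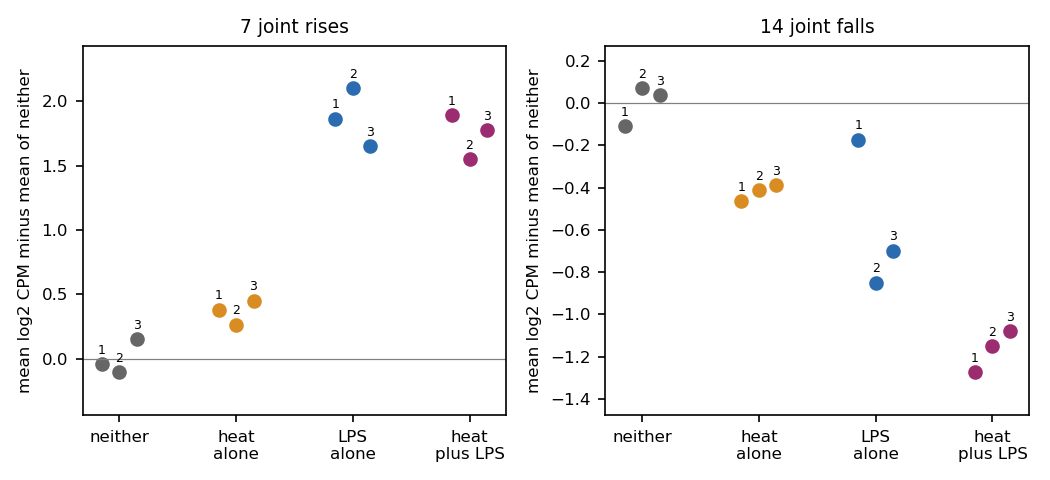
Mean over the 7 rises (left) and over the 14 falls (right) of log2 CPM minus its mean in the neither group, for each of the 12 libraries, with replicate numbers. Heat-alone libraries lie at -0.46 to -0.39 in the falls, joint libraries at -1.27 to -1.08, and LPS-alone replicate 1 at -0.17, apart from the other two LPS-alone libraries at -0.85 and -0.70.

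The LPS-alone group was uneven in the falls. Its replicate 1 stood at -0.17 on the mean log2 CPM of the 14 falls relative to the neither group, against -0.85 and -0.70 in replicates 2 and 3. It was the highest of the 3 LPS-alone libraries in 12 of the 14 falls (85.7%, against 36.9% of all genes tested). Without this library the median LPS-alone effect over the 14 falls was -0.85 in place of -0.56, and 5 of them, in place of 1, were called for LPS alone. The same fit called 44 genes jointly, 16 higher and 28 lower. In the rises the LPS-alone libraries lay at 1.65 to 2.10 and the joint libraries at 1.55 to 1.89.

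The joint effect was then tested against the sum of the single effects. No gene of 5170 passed the test of a departure from the sum (0%, smallest edgeR adjusted p = 0.172), and DESeq2 also called 0. Leaving out replicate 1 or 2 of the neither group gave 5 and 1 calls, and leaving out replicate 3 of LPS alone gave 2. At an unadjusted p under 0.05 in edgeR, where the 95% interval excludes 0, there were 372 genes (7.20%), and 258.5 are expected by chance. Of the 372, 163 had a joint effect above the sum (3.15%) and 209 below it (4.04%). Genes are not independent, and the excess over 258.5 was not tested. The median half-width of the 95% interval was 0.93 on the log2 scale, so a departure within that width was not resolved in a typical gene. Over the 21 genes called jointly, the interval excluded 0 in 4, each with the joint value below the sum. In rises 1, 4 and 6 the joint effect was thus smaller in size than the sum, and in fall 11 it was larger in size.

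In 4 of the 7 rises (rises 2, 3, 5 and 7) the joint effect minus the sum was between -0.12 and -0.01 on the log2 scale. Their sums were 2.43, 2.17, 1.71 and 1.07, and their joint effects 2.32, 2.06, 1.59 and 1.06. The interval of the difference was widest in rise 5, from -0.99 to 0.75. The median difference over all 7 rises was -0.12. It was -0.61 when joint replicate 1 was left out, -0.51 when neither replicate 3 was, and -0.87 when neither replicates 2 and 3 both were, a fit in which the difference in rise 2 was -0.94. In the remaining 3 the joint effect was below the sum by over 1 log2 unit. These 3 were singled out after their values were seen, and their intervals take no account of that. The rises were called for low neither libraries, which favours a joint value below the sum, and for high joint libraries, which favours the opposite. The neither libraries were the more variable (median SD 0.371 against 0.241 in log2 CPM). Rise 1 held 2, 4 and 5 counts in the neither libraries and 13, 2 and 19 in the heat-alone libraries, so its sum rests on few counts. It had a sum of 3.84 and a joint effect of 2.67, a difference of -1.17 (95% interval -2.27 to -0.06, edgeR adjusted p = 0.673). Rise 4 had 2.80 and 1.60, a difference of -1.21 (-2.05 to -0.37, edgeR adjusted p = 0.513). Rise 6 had 2.50 and 1.41, a difference of -1.09 (-1.70 to -0.49, edgeR adjusted p = 0.386). In these 3 genes the joint group also had a lower mean than LPS alone, at 75.2, 104 and 437 CPM against 103, 135 and 647 CPM. In rises 4 and 6 the libraries of these groups overlapped, at 80.9 to 131 against 90.2 to 164 CPM and 421 to 467 against 431 to 767 CPM. None of the 3 was called for heat plus LPS against LPS alone (edgeR adjusted p = 0.818, 0.818 and 0.509), where 0 of 5170 genes were.

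The sum of the single effects over the 14 falls had a median of -1.08 beside a median joint effect of -1.18. The differences ran from -0.98 to 0.35. Fall 3 had a sum of -1.32 and a joint effect of -1.33, with an interval of the difference from -0.66 to 0.64. Fall 7 had a sum of -1.51 and a smaller joint effect of -1.23. Fall 1 had -1.18 and -1.81, and its interval ran from -1.70 to 0.44.

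Fall 11 stood apart from the other falls in its single effects. It was at 320, 285 and 223 CPM with neither, at 220, 317 and 305 CPM with heat alone, at 262, 312 and 227 CPM with LPS alone, and at 145, 122 and 152 CPM with both. The single-treatment libraries thus overlapped the neither libraries, and every joint library lay below all 9 others. Both also held in fall 5, with single-treatment libraries at 346 to 518 CPM and joint libraries at 219 to 222 CPM. The joint libraries lay below all 9 others in falls 2, 4, 9 and 14 too. The falls were called for low joint libraries, which favours that separation. The share of all genes tested with either arrangement was not computed. The single effects in fall 11 were -0.02 (LPS) and 0.03 (heat) against a joint log2 fold change of -0.97 (SE 0.20, adjusted p = 0.0275 by edgeR). The joint effect was 0.98 below the sum (95% interval of the difference -1.55 to -0.40), which did not pass over all genes (edgeR adjusted p = 0.419). The joint call was lost without any 1 of the joint libraries, without neither replicate 1 or 2, without neither replicates 2 and 3 together and with quantile normalization in limma, 7 of 22 alternatives in all (adjusted p up to 0.223). This gene was picked for these values after they were seen.

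**Figure D5:**
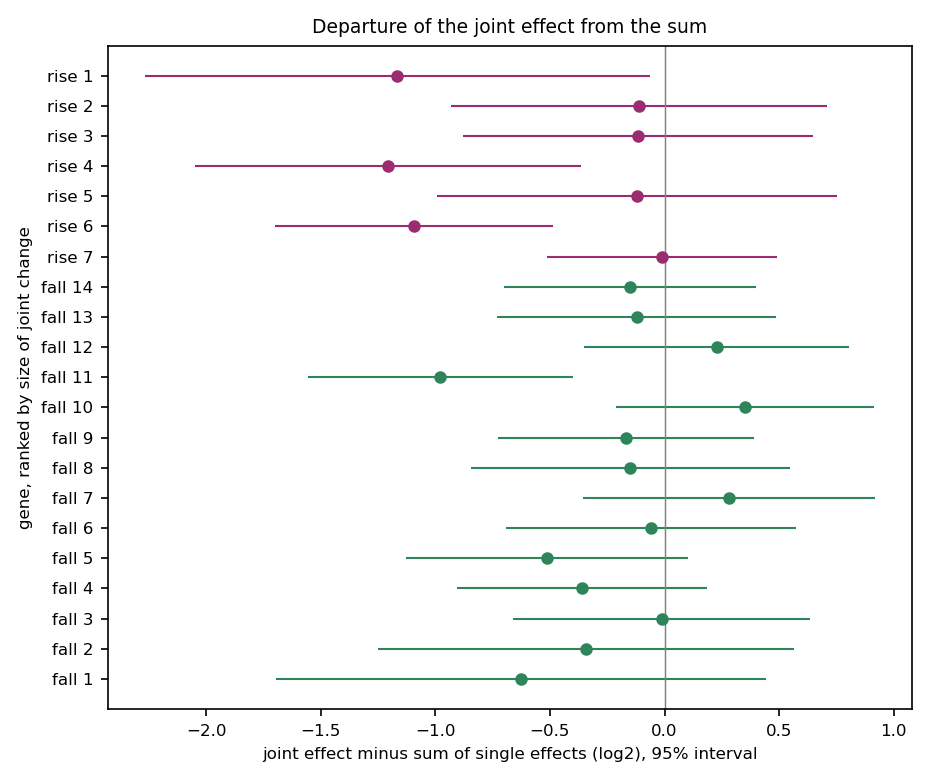
Joint effect minus the sum of both single effects on the log2 scale, with 95% intervals from edgeR, for the 7 rises and the 14 falls. The interval lies below 0 in rises 1, 4 and 6 and in fall 11 and includes 0 in the other 17 genes.

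On the linear CPM scale, chosen after the data were seen, the sum was formed as heat alone plus LPS alone minus neither. The observed joint level was 60.6% to 106% of that sum in the rises and 51.4% to 224% in the falls. It was 70.1% in rise 1, at 75.2 CPM against 107 CPM, and 51.4% in fall 11. In fall 2 it was 21.1 CPM against 18.9 CPM. The difference exceeded 2 SE (from the group SDs) in rises 1 and 6 and in fall 11, with no test. The share of all genes tested that exceeded 2 SE was not computed.

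The genes that LPS alone raised were not all called jointly. Besides the 7 shared rises, 16 genes were called for LPS alone with a median log2 fold change of 1.62. Their joint log2 fold change was 0.32 to 1.68, with a median of 1.04. Of these 16 intervals of the departure from the sum, 10 excluded 0, as did 7.20% over all genes tested. None of the 16 genes was called for that departure, and none for heat plus LPS against LPS alone. The 16 genes were chosen for high LPS-alone and low neither libraries, and both favour a joint value below the sum. They were also set apart for having no joint call, which favours low joint libraries and so the same direction. The count of such intervals thus follows in part from the selection and carries no test. Over all 23 genes raised by LPS alone, 13 intervals excluded 0. LPS alone lowered 5 genes, of which fall 10 was called jointly, at -0.87 for LPS alone and -0.997 jointly, and the other 4 had joint values of -0.94 to -0.40. In these 4 the joint value lay above the sum by 0.62 to 1.19. Here 4 of 4 intervals excluded 0, as did 7.20% over all genes tested. None of the 4 was called for that departure or for heat plus LPS against LPS alone. These genes were chosen for low LPS-alone and high neither libraries, and both favour a joint value above the sum. They were also set apart for having no joint call, which favours high joint libraries and so the same direction.

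The number of joint calls rested on single libraries in both groups. It was 39, 12 and 47 without saline non-conditioned replicates 1, 2 and 3, and 7 (5 higher, 2 lower) without replicates 2 and 3 together, where only 3 of the 7 rises (rises 1, 2 and 3) and 1 of the 14 falls (fall 3) remained. In that fit, which leaves 1 neither library, fall 5 had a log2 fold change of -0.74 in place of -1.27, rise 1 of 3.58 in place of 2.67 and rise 2 of 3.16 in place of 2.32. Without LPS conditioned replicates 1, 2 and 3 it was 9, 11 and 13. It was 44 when LPS-alone replicate 1 was left out. When any 1 of the 12 libraries was left out, 5 to 7 of the 7 rises and 4 to 14 of the 14 falls remained. The lowest counts of falls, 4, came without joint replicate 1 and likewise without joint replicate 2. A count of 7 falls remained without joint replicate 3, and also without replicate 2 of the neither group. Rises 1, 2, 3, 6 and 7 and falls 4 and 5 were called in all 12 of these fits with 1 library left out. Fall 1 was called in 7 of them (edgeR adjusted p up to 0.234) and fall 2 in 10 (up to 0.115).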

How the data were processed

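RNA of sorted microglia (15 ng per library) entered bulk MARS-seq, which reads the 3′ ends of mRNA, with 100 bp single reads and about 25 M reads per sample, per the labels' protocols. Per the submitters' processing notes, cutadapt, STAR, HTSeq, DESeq2 and the galGal5 build were used; their versions and order are not stated in those notes, nor are the annotation release, strand setting or any use of molecular identifiers, so counts of overlapping, antisense or near-identical genes are uncertain. The authors deposited raw counts for 11207 genes, per the file headers, and a normalized signal equal to count times a library factor (deviation at most 0.0066). Total counts were 0.757% to 3.85% of the stated reads.

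Genes passing filterByExpr (minimum count 10) numbered 5170. The 12 libraries were fitted together with the quasi-likelihood method of edgeR 4.0.16 (R 4.3.3, TMM, 1 mean per group, no covariate), with contrasts for the joint effect, both single effects, their interaction, and LPS alone against heat alone, each 2-sided with Benjamini-Hochberg adjustment. The groups thus share an estimate of the spread. Heat plus LPS against LPS alone was a further contrast of the same fit, tested in the same way. SEs are the log2 fold change over the root of F. The procedure was tested on simulated data. Replicates are separate pools as far as the labels say. Alternatives used DESeq2 1.42.0, limma 3.58.1, other filters and scalings, a replicate block and left-out libraries. Log2 CPM used a prior count of 2. A floor of 3 counts was 3.11 to 15.9 CPM.

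The genes given by identifier are the 2 largest called rises and falls with a mean of at least 20 CPM and no overlap between the groups; all 7 rises and 14 falls met those conditions. Planned gene lists and marker lists could not be applied without symbols. The comparison, rules and lists were chosen with earlier results of these data known. No sequence is shown because none could be tied to an identifier. Deviations of same-numbered neither and joint libraries correlated at 0.0174 to 0.129, and those of differently numbered ones at -0.101 to 0.0721. Between heat alone and LPS alone the values were 0.0881 to 0.0967 and -0.0726 to -0.035. Whether same-numbered libraries share an effect was not tested. The main fit did not treat replicate numbers as pairs, and the replicate block did.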

Additional observations from a re-analysis of the deposited data

How the results depend on the processing

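The joint count of 21 genes became 44 with DESeq2, 34 with library weights in limma, 105 with no filter on low counts, 37 at an adjusted p under 0.1 and 7 without saline non-conditioned replicates 2 and 3 together; leaving out single libraries gave 9 to 47. DESeq2 gave no adjusted p for 4009 genes, among them 4 of the 7 rises and 2 of the 14 falls, and called the remaining 3 rises and 12 falls. The fit with no filter tested all of the 11207 genes but the 340 with no count, so these counts rest on different numbers of genes. In that fit rise 2 had an edgeR adjusted p of 8.34e-29 for the joint effect, against 0.000279 in the main fit. No departure from the sum was called except with no filter (35) and with a library left out (0 to 5). LPS alone against heat alone gave 11 genes; quantile normalization gave 7, the compared libraries only 7, no filter 52, the 2 left-out saline libraries together 24, and single libraries left out 6 to 21. LPS alone gave 28; quantile normalization gave 10, library weights 11, no filter 80, an adjusted p under 0.1 gave 52, the compared libraries only 11, the 2 left-out saline libraries together 5, and single libraries left out 8 to 65. Heat alone gave 0 except with no filter (8); leaving out single libraries gave 0. The cause of these moves was not tested, apart from the looser threshold.

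For ENSGALG00000027716.2 the departure from the sum, -0.11 and not called, turned to 0.16 without saline non-conditioned replicate 1 and to 0.11 and 0.029 without LPS conditioned replicates 2 and 3, over a range of -0.61 to 0.16 with single libraries left out. Its heat-alone value of 0.21 turned to -0.054 without saline non-conditioned replicate 1, over a range of -0.054 to 0.61. Over the 4 identified genes, 10 values lost a call, these 4 changed sign and the other 342 did neither. Every lost call was a joint effect of fall 1 or fall 2. The interaction and heat-alone values, and the LPS-alone values of those falls, were not called in the main fit and could not lose a call. In DESeq2 the joint effects of rise 1, fall 1 and fall 2 had no adjusted p and were left out of this count. The median interaction over the 14 falls, -0.15, was 0.06 without LPS non-conditioned replicate 1. The alternative scalings shifted the median gene by at most 0.0403 on the log2 scale. With the replicate block 29 genes were called jointly, 13 higher and 16 lower, and all 7 rises and 14 falls were among them; deviations of same-numbered libraries over all groups correlated at -0.112 to 0.129. The linear scale, the authors' factors and the joint removal of 2 libraries were chosen after the data were seen.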

Other observations

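The largest fitted joint fall was not called. In that gene the neither libraries held 14, 1080 and 16 counts and the joint libraries 20, 24 and 16, a log2 difference of -5.47 (SE 1.35, adjusted p = 0.0838 by edgeR) that rests on saline non-conditioned replicate 2, at 5913 CPM against 42.7 and 35.7 CPM in the other two. The heat-alone libraries held 73, 63 and 592 counts and the LPS-alone libraries 1384, 185 and 271. The joint libraries, at 36.2 to 49.8 CPM, lay below all 6 single-treatment libraries, and so did saline non-conditioned replicates 1 and 3. The share of all genes with that separation was not computed. The gene was picked after its values were seen.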
